A study of Homo sapiens with 12 samples.

Results

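Trefoil peptides, mucins and other goblet cell genes were followed across 4 groups of Caco-2 cells, which come from a colon carcinoma and serve as a model of intestinal epithelium. The members were 10 genes chosen by name: TFF1, TFF2, TFF3, MUC2, MUC5AC, MUC13, AGR2, SPDEF, FCGBP and HEPACAM2. A gene was measured where a probe set of the array carried its symbol alone. This held for 9 of the 10, each with 1 probe set, of 18418 genes in all, and MUC5AC was not analysed here. The groups were untransfected cells, which had received no exogenous DNA, and stable clones overexpressing HA-tagged TLR4, the receptor for bacterial lipopolysaccharide, as the wild type (TLR4-WT) or with the substitution D299G or T399I. The transfected clones had received 1 µg of plasmid per well and were selected in 1 µg/ml blasticidin, and no group carried an empty plasmid. All cells were cultured for 8 days before RNA was taken, and each group had 3 RNA samples on 3 arrays, 12 in all. Whether the 3 samples of a group were separate cultures, and whether a line was 1 clone or several, is not stated, so p-values reflect sample-to-sample spread that may be purely technical. A difference between a TLR4 line and untransfected cells therefore also contains transfection, selection and cloning, which cannot be told apart from the transgene.

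Goblet cells are the mucus-secreting cells of the intestinal lining. MUC2 is the gel-forming mucin that builds intestinal mucus, FCGBP is a secreted protein bound into it, and AGR2 is a disulfide isomerase of the endoplasmic reticulum needed to make it. MUC13 is a different kind of mucin, anchored in the apical membrane of enterocytes as well as goblet cells. Trefoil peptides are small, disulfide-rich peptides secreted with mucins that promote repair of the epithelium: TFF3 is the intestinal form, and TFF1 and TFF2 are mostly gastric, where MUC5AC is the main surface mucin. SPDEF is a transcription factor of goblet cell maturation, and HEPACAM2 is an immunoglobulin-type adhesion protein found in intestinal secretory cells.

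Values are the deposited log2 expression values, so a difference of 1 is a factor of 2 in signal. TLR4 lay between 4.59 and 5.12 in untransfected cells, below the lower quartile of each array (5.2 to 5.29), and between 8.29 and 8.89 in the lines, as labelled. Of 7 epithelial markers, 6 (EPCAM, CDH1, VIL1, KRT8, KRT18 and KRT19) were above the array median on all 12 arrays, and KRT20 on only 1. Arrays of 1 group correlated at 0.9902 to 0.9959 across probe sets and arrays of different groups at 0.9769 to 0.9925. Of 9 leukocyte and fibroblast markers, PTPRC and DCN were below the lower quartile on all 12 arrays and 6 were above the median on none. CD68 (9.36 to 9.98) and COL1A1 (8.02 to 8.41) were above the median on all 12, and COL3A1 on 5.

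Of the 9 measured genes, 5 (TFF1, TFF2, TFF3, MUC13 and AGR2) were above the array median on all 12 arrays. MUC2 lay between 6.15 and 6.63 and was below the median (6.88 to 6.97) on all 12. SPDEF was above it on 3 arrays and FCGBP on 1, and HEPACAM2 was above it only in untransfected cells. The defining goblet cell genes MUC2, SPDEF and FCGBP thus had low signal in these cells, and the file gives no detection calls. The gene group is therefore described by its named members, and not as a goblet cell population.

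Among the 4 groups, 6 of the 9 genes differed by limma's moderated F test (adjusted p under 0.05 over all 33297 probe sets), where 41.9% of all probe sets did. The 6 were TFF1, TFF2, TFF3, MUC13, SPDEF and HEPACAM2. MUC2, AGR2 and FCGBP did not pass (adjusted p = 0.231, 0.254 and 0.211). The distance from the lowest to the highest group mean was at least 1 on the log2 scale in 4 genes, HEPACAM2 (4.57), TFF2 (1.59), TFF3 (1.32) and MUC13 (1.24), where 6.08% of the 18418 genes and 5.66% of probe sets reached it. HEPACAM2 ranked 3rd of all genes by this distance. The median distance was 0.53 over the 9 genes and 0.35 over all genes.

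**Figure D1:**
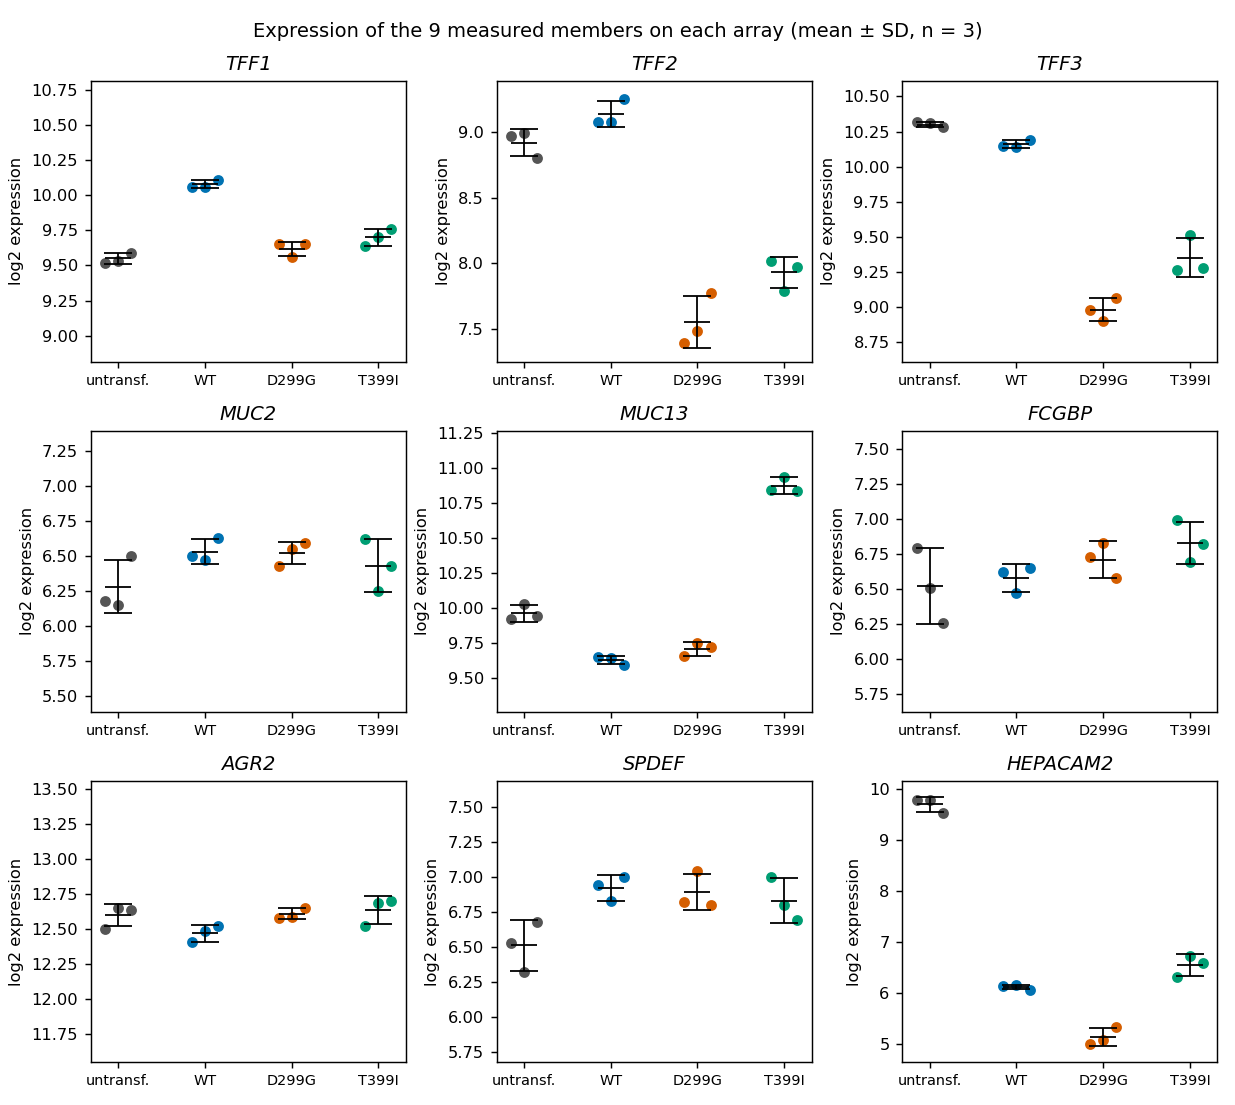
Log2 expression of the 9 measured genes in untransfected Caco-2 cells and the TLR4-WT, TLR4-D299G and TLR4-T399I lines. Each point is 1 array and bars give the mean ± SD of 3. Vertical axes differ between panels and each spans at least 2 log2 units. HEPACAM2 is far above the lines in untransfected cells, TFF2 and TFF3 are low in both mutant lines, and MUC13 is highest in T399I.

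RefSeq promoter windows (GRCh38.p14) were at hand for 6 members, MUC2, MUC13, AGR2, SPDEF, FCGBP and HEPACAM2, which has 2 annotated starts. Shown are the 250 bases before the start for HEPACAM2, which had the widest range, and MUC13, which moved both ways. The sequences run 5′ to 3′ along the gene, which lies on the minus strand in each case, and capitals mark motif matches. The HEPACAM2 windows lie at chr7:93232199-93232448 and chr7:93219572-93219821 and the MUC13 window at chr3:124934752-124935001.
HEPACAM2, first start: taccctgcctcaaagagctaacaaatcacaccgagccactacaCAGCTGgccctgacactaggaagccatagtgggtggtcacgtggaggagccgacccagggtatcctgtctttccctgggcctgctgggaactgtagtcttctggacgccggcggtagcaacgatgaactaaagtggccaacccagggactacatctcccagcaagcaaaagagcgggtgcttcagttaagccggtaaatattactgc
HEPACAM2, second start: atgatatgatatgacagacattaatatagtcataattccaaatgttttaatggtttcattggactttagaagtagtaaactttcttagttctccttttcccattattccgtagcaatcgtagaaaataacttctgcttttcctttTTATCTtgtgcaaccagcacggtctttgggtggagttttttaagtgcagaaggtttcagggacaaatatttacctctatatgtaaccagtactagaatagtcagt
MUC13: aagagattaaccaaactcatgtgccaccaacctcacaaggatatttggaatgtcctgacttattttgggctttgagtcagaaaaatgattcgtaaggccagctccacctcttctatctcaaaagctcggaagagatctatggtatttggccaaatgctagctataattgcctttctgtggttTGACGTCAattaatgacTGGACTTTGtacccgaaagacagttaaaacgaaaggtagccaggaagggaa

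Both strands were searched for 8 short motifs, and a match describes letters only and is not a binding site. MUC13 held CAAAGTCCA, a core of the HNF4 motif, on the reverse strand, 51 to 43 bases before its start. This match was found in 0.325% of all 35116 windows of the same length. MUC13 also held TGACGT, an ATF and CREB core, on both strands, as an overlapping pair of matches. Any match to TGACGT was found in 7.1% of windows, and the share with such a pair was not counted. The first HEPACAM2 start held CAGCTG, an E box (14% of windows), as did AGR2 and MUC2. The second held AGATAA, which GATA factors are known to bind, on the reverse strand (9.17%), and AGR2 held it on the forward strand. The letters TTTATNG (CDX2, 8.93% of windows) were in the MUC2 window, and TATAAA (10.7%), TGTTTAC (FOXA, 2.98%) and the NF-kB motif (0.179%) were in none of the 7 member windows.

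Of the trefoil peptides, TFF2 and TFF3 fell in both mutant lines and TFF1 did not, while TFF1 rose in TLR4-WT. TFF2 read 8.97, 8.99 and 8.8 in untransfected cells, 9.08, 9.08 and 9.25 in TLR4-WT, 7.39, 7.48 and 7.77 in D299G, and 8.02, 7.79 and 7.97 in T399I. None of the 4 groups overlapped another, and the mutant lines lay well below the other groups. TFF2 was 2.59-fold lower in D299G than in untransfected cells (log2 difference -1.37, SE 0.11, adjusted p = 4.86e-06 by limma) and 1.99-fold lower in T399I (-0.99, adjusted p = 5.23e-05). Against TLR4-WT it was 3.01-fold lower in D299G (-1.59, adjusted p = 2.88e-06) and 2.31-fold lower in T399I (-1.21, adjusted p = 5.98e-05). TLR4-WT and untransfected cells did not differ beyond the threshold (0.22, 95% interval -0.02 to 0.45, adjusted p = 0.149).

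TFF3, the trefoil peptide of goblet cells, ran nearly the same course. It read 10.32, 10.31 and 10.28 in untransfected cells, 10.15, 10.14 and 10.19 in TLR4-WT, 8.98, 8.9 and 9.06 in D299G, and 9.26, 9.51 and 9.28 in T399I. Again no group overlapped another, with untransfected cells highest and D299G lowest. TFF3 was 2.50-fold lower in D299G than in untransfected cells (-1.32, SE 0.08, adjusted p = 5.56e-07) and 1.94-fold lower in T399I (-0.95, adjusted p = 5.65e-06). The step from untransfected cells to TLR4-WT did not pass (-0.14, 95% interval -0.31 to 0.02, adjusted p = 0.172). Between the mutants TFF3 was 1.29-fold lower in D299G (-0.37, adjusted p = 0.00698). TFF2 was 1.30-fold lower in D299G than in T399I (-0.38, adjusted p = 0.0389), but the adjusted p was 0.143 and 0.129 when D299G replicate 1 or 2 was left out, and 0.102 and 0.119 when T399I replicate 1 or 3 was.

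TFF1 read 9.52, 9.53 and 9.59 in untransfected cells, 10.06, 10.06 and 10.11 in TLR4-WT, 9.65, 9.56 and 9.65 in D299G, and 9.64, 9.7 and 9.76 in T399I. The 3 TLR4-WT arrays stood alone above the other 9. TFF1 was 1.44-fold higher in TLR4-WT than in untransfected cells (0.53, SE 0.06, adjusted p = 6.57e-05), and 1.37-fold and 1.30-fold lower in D299G and T399I than in TLR4-WT (adjusted p = 0.000295 and 0.00228). The mutants did not pass against untransfected cells, with differences of 0.07 in D299G (95% interval -0.06 to 0.20, adjusted p = 0.358) and 0.15 in T399I (0.02 to 0.28, adjusted p = 0.0737). All 3 trefoil genes were thus lower in both mutant lines than in TLR4-WT, by 0.38 to 1.59 on the log2 scale, and TLR4-WT arrays serve in both comparisons.

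The trefoil genes lie side by side on chromosome 21, in the RefSeq order ABCG1, TFF3, TFF2, TFF1 and TMPRSS3. ABCG1, a cholesterol exporter, was 0.34 higher in D299G than in untransfected cells (adjusted p = 0.0257), a call lost without any 1 of the D299G arrays or without untransfected replicate 2 or 3 (adjusted p from 0.0597 to 0.0768). TMPRSS3, a membrane serine protease, rose in TLR4-WT (0.53, adjusted p = 0.00245) and T399I (0.64, adjusted p = 0.000699). In D299G TMPRSS3 was 0.21 above untransfected cells (adjusted p = 0.121), which passed only without untransfected replicate 1 (0.0459). Neither neighbour was lower in a mutant line than in untransfected cells. Both had low signal, with ABCG1 at 5.4 to 5.91 and TMPRSS3 at 6.06 to 6.94, so a fall may not have shown. TMPRSS3 was 0.42 lower in D299G than in T399I (adjusted p = 0.0161), a call lost without D299G replicate 1 or T399I replicate 3 (0.065 and 0.0706). Against TLR4-WT it was 0.31 lower in D299G (adjusted p = 0.0554).

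**Figure D2:**
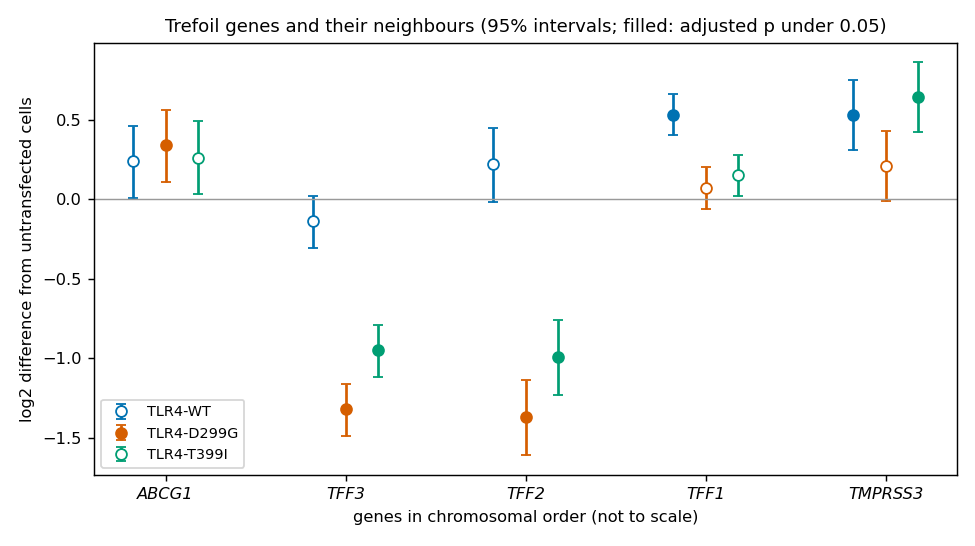
Log2 difference of each TLR4 line from untransfected cells for the trefoil genes and the gene on either side, in chromosomal order and not to scale. Points are fitted differences with 95% intervals, filled where the adjusted p was under 0.05. TFF3 and TFF2 lie below 0 in D299G and T399I, and TFF1 lies above 0 in TLR4-WT at 0.53.

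Of the mucins, the membrane mucin MUC13 moved in opposite directions in different lines. It read 9.92, 10.03 and 9.94 in untransfected cells, 9.65, 9.64 and 9.59 in TLR4-WT, 9.66, 9.75 and 9.72 in D299G, and 10.84, 10.93 and 10.83 in T399I. The T399I arrays were clear above all others, and the TLR4-WT and D299G arrays clear below untransfected cells. MUC13 rose 1.87-fold in T399I (0.90, SE 0.06, adjusted p = 1.56e-06) and fell 1.26-fold in TLR4-WT (-0.34, adjusted p = 0.00163) and 1.19-fold in D299G (-0.25, adjusted p = 0.00738). Set against each other, T399I was 2.36-fold above TLR4-WT (1.24, adjusted p = 9.52e-07) and 2.23-fold above D299G (adjusted p = 6.54e-07). D299G and TLR4-WT did not differ beyond the threshold (0.08, 95% interval -0.05 to 0.22, adjusted p = 0.458).

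Of the genes on either side of MUC13, HEG1, an endothelial and epithelial membrane protein, fell in all 3 lines against untransfected cells (-1.15 in TLR4-WT, -0.89 in D299G and -0.97 in T399I, adjusted p = 3.9e-06 or lower). ITGB5, an integrin subunit, was lower in D299G (-0.24, adjusted p = 0.0153), about as much as MUC13 there, a call lost without D299G replicate 2 (0.0662). In TLR4-WT and T399I it differed from untransfected cells by -0.03 and -0.02 (adjusted p = 0.749 and 0.822), and neither neighbour was higher in T399I.

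MUC2, the gel-forming mucin, read 6.18, 6.15 and 6.5 in untransfected cells, 6.5, 6.47 and 6.63 in TLR4-WT, 6.43, 6.55 and 6.59 in D299G, and 6.62, 6.25 and 6.43 in T399I. All 4 groups overlapped. No comparison passed, and the largest difference, TLR4-WT against untransfected cells, was 0.26 (95% interval 0.01 to 0.51, adjusted p = 0.11). Without untransfected replicate 3, the highest untransfected array for MUC2, the differences passed in TLR4-WT (0.37, adjusted p = 0.0238) and D299G (0.36, adjusted p = 0.024). FCGBP, the MUC2-bound mucus protein, ranged from 6.26 to 6.79 in untransfected cells, 6.47 to 6.65 in TLR4-WT, 6.58 to 6.83 in D299G and 6.69 to 6.99 in T399I. Its largest difference was 0.31 in T399I against untransfected cells (95% interval 0.03 to 0.60, adjusted p = 0.0959), which passed only without untransfected replicate 1 (0.45, adjusted p = 0.0198).

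AGR2, the isomerase for mucin folding, had the narrowest range among the 9 genes. Its arrays lay between 12.5 and 12.65 in untransfected cells, 12.41 and 12.52 in TLR4-WT, 12.58 and 12.65 in D299G, and 12.52 and 12.7 in T399I. The 95% interval of every difference from untransfected cells lay within -0.28 to 0.20, and no comparison passed (adjusted p from 0.205 to 0.926). AGR3, its close relative and neighbour on chromosome 7, was 0.84 lower in TLR4-WT than in untransfected cells (adjusted p = 0.00104), a lower bound since 2 of its 3 TLR4-WT arrays were below their lower quartile. TSPAN13, the neighbour on the other side, fell in all 3 lines (-0.60, -0.30 and -0.32 in TLR4-WT, D299G and T399I).

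SPDEF, the goblet cell transcription factor, read 6.53, 6.32 and 6.68 in untransfected cells, 6.94, 6.83 and 7 in TLR4-WT, 6.82, 7.04 and 6.8 in D299G, and 7, 6.8 and 6.69 in T399I. All 9 arrays of the TLR4 lines were above the 3 untransfected arrays, and the lines overlapped one another. SPDEF was 1.33-fold higher in TLR4-WT (0.41, SE 0.11, adjusted p = 0.0166) and 1.30-fold higher in D299G (0.38, adjusted p = 0.023). The difference in T399I missed the threshold (0.32, 95% interval 0.07 to 0.57, adjusted p = 0.0525). The TLR4-WT call was lost without TLR4-WT replicate 3 or untransfected replicate 2 (adjusted p = 0.0632 and 0.0655), and the D299G call without D299G replicate 2 or untransfected replicate 2 (0.091 and 0.09). In T399I the difference passed without T399I replicate 3 or untransfected replicate 3 (0.0423 and 0.0243).

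HEPACAM2 was high only in untransfected cells. It read 9.8, 9.79 and 9.53 there, 6.13, 6.15 and 6.07 in TLR4-WT, 5.01, 5.07 and 5.33 in D299G, and 6.31, 6.73 and 6.6 in T399I. No group overlapped another. In D299G 2 of the 3 arrays were below their own lower quartile, so folds against D299G are lower bounds. Among the lines, HEPACAM2 was at least 1.97-fold lower in D299G than in TLR4-WT (-0.98, SE 0.12, adjusted p = 0.000226) and at least 2.66-fold lower than in T399I (-1.41, adjusted p = 2.27e-05). T399I was 1.35-fold above TLR4-WT (0.43, adjusted p = 0.0466), a call lost when any 1 TLR4-WT array was left out (0.102 to 0.129), when T399I replicate 2 or 3 was (0.162 and 0.142) and with arrays centred on their medians (0.051).

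HEPACAM2 was 12-fold lower in TLR4-WT than in untransfected cells, at least 23.8-fold lower in D299G and 8.94-fold lower in T399I. Its TLR4-WT and T399I arrays were also below the array median, so with no detection calls those folds may understate the difference. The log2 differences were -3.59, -4.57 and -3.16, the largest of any member in each line (SE 0.12, adjusted p = 3.73e-08 or lower). Its neighbours on chromosome 7 were SAMD9L, which was below the lower quartile on all 12 arrays, and VPS50, a vesicle-tethering subunit. VPS50 was 0.57 lower in TLR4-WT and 0.56 lower in D299G than in untransfected cells (adjusted p = 0.00137 and 0.00127), and read 8.3 to 8.69 in T399I against 8.46 to 8.62 in untransfected cells.

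Counted by comparison, 4 of the 9 genes passed between TLR4-WT and untransfected cells, where 31.2% of all probe sets did. TFF1 and SPDEF were higher (16.1% of probe sets), and MUC13 and HEPACAM2 lower (15.1%). The arrays of both groups did not overlap in 6 of the 9 genes, against 43.6% of probe sets. In D299G 5 of 9 passed (35.4% of all probe sets), with SPDEF higher (17.5%) and TFF2, TFF3, MUC13 and HEPACAM2 lower (17.9%), and 5 did not overlap (47.3%). In T399I 4 of 9 passed (29.5%), with MUC13 higher (14.6%) and TFF2, TFF3 and HEPACAM2 lower (14.8%), and 6 did not overlap (37.9%). These 3 comparisons share the untransfected arrays. The median difference of the 9 genes was 0.06, 0.01 and 0.15 in TLR4-WT, D299G and T399I, beside 0.06, 0.07 and 0.05 over all genes, so the genes did not move one way as a group.

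Among the TLR4 lines, 4 of 9 passed between D299G and TLR4-WT, where 16.9% of all probe sets did, and all 4 (TFF1, TFF2, TFF3 and HEPACAM2) were lower in D299G (9.02% of probe sets, with 7.85% higher). In that comparison 6 genes did not overlap (34.4%). Between T399I and TLR4-WT 5 of 9 passed (10.4%), with MUC13 and HEPACAM2 higher (5.9%) and the 3 trefoil genes lower (4.48%) in T399I, and 6 did not overlap (26.6%). Between D299G and T399I 4 of 9 passed (13.4%), and TFF2, TFF3, MUC13 and HEPACAM2 were all lower in D299G (7.64%, with 5.81% higher). The same number, 4, did not overlap (29.9%). The comparisons set selected lines side by side, and the substitution cannot be told apart from other differences between the clones. AGR2, MUC2 and FCGBP passed in none of the 6 comparisons.

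**Figure D3:**
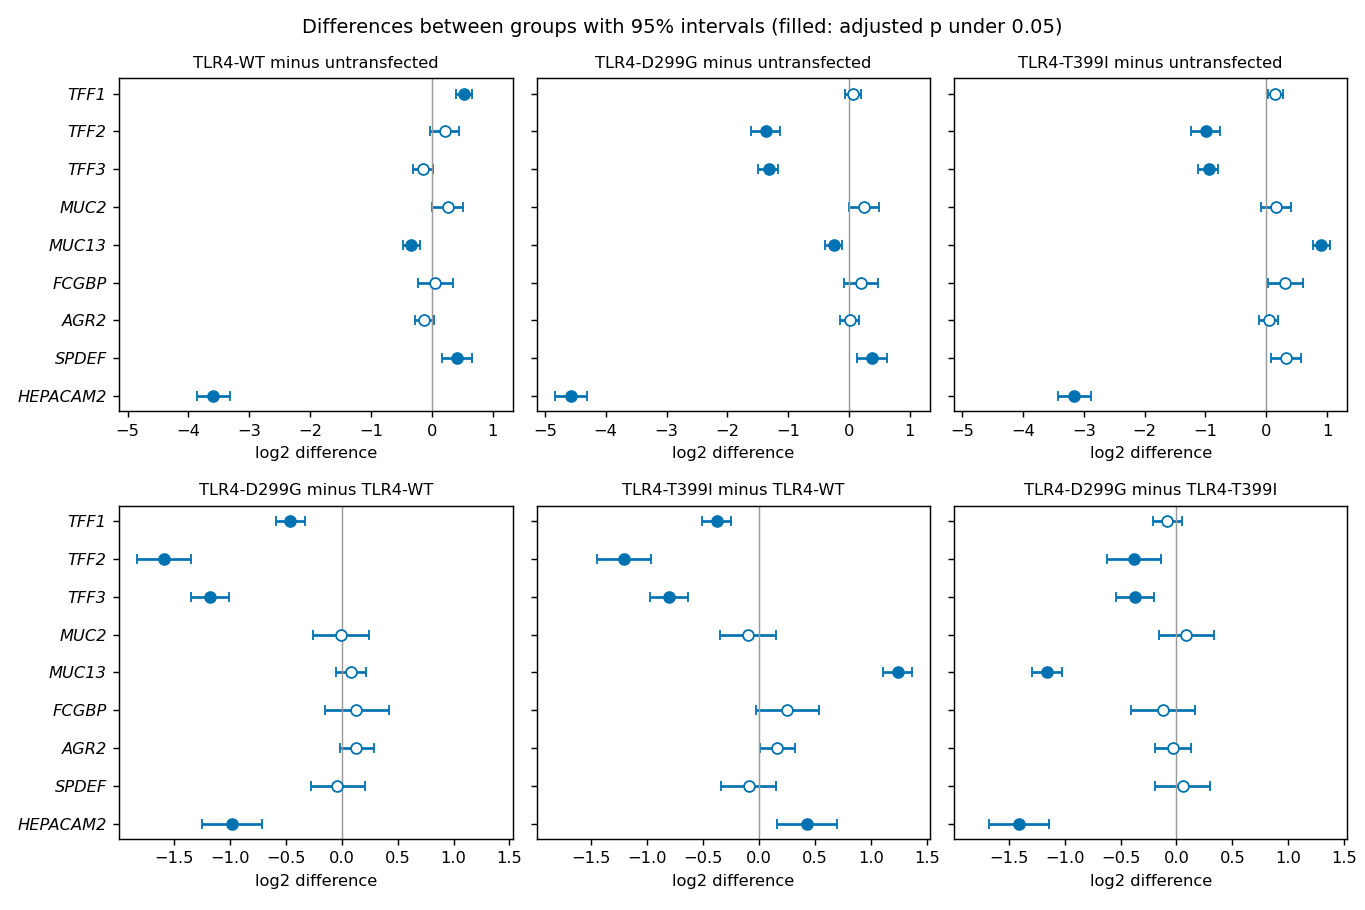
Log2 differences between groups for the 9 measured genes in 6 comparisons, with 95% intervals of the fit and filled points where the adjusted p was under 0.05. The horizontal axes differ between the upper and lower rows. HEPACAM2 has the largest difference in each comparison with untransfected cells, and the trefoil genes lie below 0 in both comparisons with TLR4-WT.

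The regulators of secretory fate were taken from a list of 22 genes, of which 21 were measured and 16 passed the F test, beside 41.9% of all probe sets. In TLR4-WT 8 were higher and 2 lower than in untransfected cells (16.1% and 15.1% of all probe sets), in D299G 7 and 6 (17.5% and 17.9%), and in T399I 7 and 4 (14.6% and 14.8%). ATOH1, the bHLH factor that commits cells to the secretory lineage, ranged from 5.95 to 6.49 in untransfected cells, 6.76 to 6.82 in TLR4-WT, 6.41 to 6.55 in D299G and 7.14 to 7.39 in T399I. It rose in TLR4-WT (0.56, adjusted p = 0.00472) and T399I (1.03, adjusted p = 8.04e-05), while D299G overlapped untransfected cells (0.26, adjusted p = 0.115) and passed only without untransfected replicate 2 (0.0183). JAG1, a Notch ligand, rose in all 3 lines by 1.01 to 1.17 (adjusted p = 5.04e-07 or lower).

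CDX2, the homeobox factor of intestinal identity, had the same order of group means as TFF2, and a link between them was not tested. In neither gene did the highest groups, TLR4-WT and untransfected cells, differ beyond the threshold (adjusted p = 0.582 for CDX2 and 0.149 for TFF2). CDX2 ranged from 9.92 to 10.05 in untransfected cells, 9.99 to 10.1 in TLR4-WT, 9.13 to 9.14 in D299G and 9.76 to 9.85 in T399I. It fell in D299G against untransfected cells (-0.85, adjusted p = 2.34e-06), and its smaller fall in T399I (-0.18, adjusted p = 0.0399) was lost without T399I replicate 2 or 3 or untransfected replicate 1 or 3 (0.0744 to 0.123). KLF4, a zinc-finger factor of goblet cell differentiation, fell in TLR4-WT (-0.58, adjusted p = 0.00282). In D299G it fell by 0.39 (adjusted p = 0.0204), a call lost without D299G replicate 1 or 3 or untransfected replicate 2 (0.0625 to 0.0805). T399I was 0.30 above untransfected cells (adjusted p = 0.0663), a difference that passed without untransfected replicate 2 (0.0275).

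Other goblet cell products went different ways. Of 15 measured, 9 were above the array median on no array, and CLCA1 and REP15 were below the lower quartile on all 12. By the F test 10 of the 15 passed (41.9% of all probe sets). In TLR4-WT 5 were higher and 4 lower than in untransfected cells, in D299G 3 and 2, and in T399I 3 and 3, where 31.2%, 35.4% and 29.5% of all probe sets passed in either direction, and the D299G total dropped from 5 to 3 without D299G replicate 3. BCAS1 fell in all 3 lines (-1.44, -1.05 and -1.54 in TLR4-WT, D299G and T399I, adjusted p = 1.31e-05 or lower). ZG16, a lectin of the mucus granule, rose in TLR4-WT (1.02, adjusted p = 7.49e-05) and fell in T399I (-0.45, adjusted p = 0.0124). In D299G it was higher by 0.33 (adjusted p = 0.0455), with arrays that overlapped those of untransfected cells. TSPAN8, a tetraspanin of the intestinal epithelium, rose 1.44 in TLR4-WT, 0.61 in D299G and 1.34 in T399I (adjusted p = 4.67e-05 or lower). CEACAM6, whose sequence is close to that of other CEACAM genes, rose in TLR4-WT (1.26, adjusted p = 0.000306).

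Of 13 other mucins, 4 passed the F test, a share not far from the 41.9% of all probe sets, and their median range of group means was 0.34, as over all probe sets (0.34). That count fell to 2 without any 1 of the TLR4-WT or D299G arrays or untransfected replicate 2, to 1 without T399I replicate 3, and to 2 with the trended robust prior. By limma 1, 4 and 4 were higher in TLR4-WT, D299G and T399I than in untransfected cells (16.1%, 17.5% and 14.6% of all probe sets). Leaving out single arrays took those totals as low as 0, 1 and 1. None was called lower, but signal was low, so a fall may not have shown. Of the 13, 3 had means below the lower quartile in every group. The 4 that passed the F test (MUC20, MUC3A, MUC5B and MUC17) were below the array median on every untransfected array. MUC20, a membrane mucin, read 6.41, 6.17 and 6.47 in untransfected cells and 7.25, 6.99 and 7.16 in D299G, a rise of 0.78 (adjusted p = 0.000236), and D299G stood above all other arrays. MUC3A, a membrane mucin with a near-identical copy whose reading is uncertain for that reason, rose 0.57 in T399I (adjusted p = 0.00466).

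Enzymes that build mucin sugar chains changed in both directions. Of 26 measured, 20 passed the F test (41.9% of all probe sets). In TLR4-WT 5 were higher and 7 lower than in untransfected cells (16.1% and 15.1% of all probe sets), in D299G 8 and 6 (17.5% and 17.9%), and in T399I 7 and 7 (14.6% and 14.8%). GALNT3, which starts O-linked chains, fell in all lines, most in D299G (-1.56, adjusted p = 2.2e-07). GCNT4, a branching enzyme, read 7.67, 7.9 and 7.9 in D299G and no higher than 6.32 elsewhere, and rose 1.90 against untransfected cells (adjusted p = 2.78e-05). B3GNT3, which extends O-linked core chains, rose in all 3 lines by 1.07 to 1.25 (adjusted p = 3.11e-07 or lower). ST6GAL1, a sialyltransferase that acts mainly on N-linked chains, fell in all 3 lines (-1.81, -1.20 and -2.77, adjusted p = 1.55e-06 or lower).

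**Figure D4:**
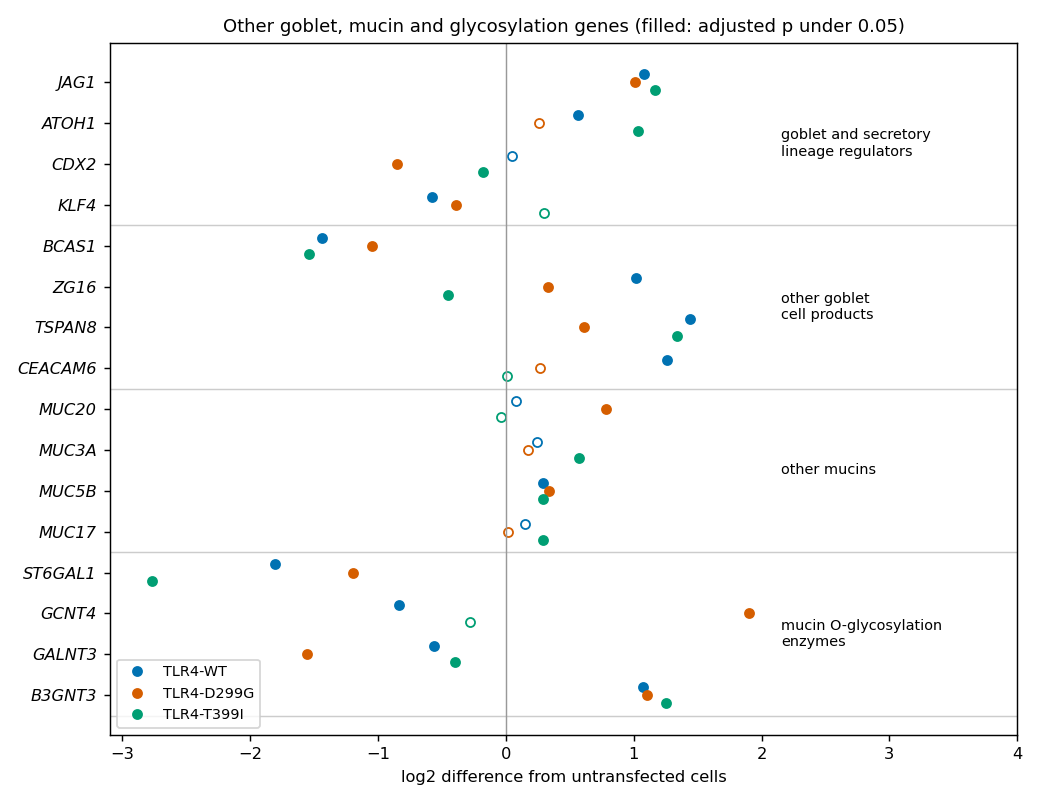
Log2 difference of each TLR4 line from untransfected cells for the 4 genes with the widest range of group means in each of 4 lists. Filled points had an adjusted p under 0.05. JAG1, TSPAN8 and B3GNT3 lie above 0 in all 3 lines, BCAS1, ST6GAL1 and GALNT3 below 0 in all 3, and GCNT4 is high in D299G alone.

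Markers of other cell types moved in the same comparisons, and their part in the results was not tested. Many had low signal: 4 enterocyte, 5 Paneth cell, 6 enteroendocrine and 1 stem cell marker were above the array median on no array. In these lists, all set against untransfected cells, the shares of all probe sets called higher and lower were 16.1% and 15.1% in TLR4-WT, 17.5% and 17.9% in D299G, and 14.6% and 14.8% in T399I. Of 11 enterocyte markers, 2 were higher and 5 lower in TLR4-WT, 2 and 7 in D299G, and 0 and 4 in T399I. Sucrase-isomaltase (SI) read 10.85 to 10.89 in untransfected cells and 4.6 to 4.79 in D299G, below the lower quartile of each D299G array. APOA4 was among the 2 called higher in D299G (1.21). Of 8 Paneth cell markers, 4 were higher in TLR4-WT, 4 in D299G and 3 in T399I, with 1, 0 and 1 lower. The higher calls in each line include REG3A, which was below the lower quartile on all 12 arrays. LYZ (lysozyme) rose from between 9.08 and 9.25 in untransfected cells to between 12.55 and 12.6 in D299G. PLA2G2A also rose in D299G (0.83) but fell in TLR4-WT (-1.75) and T399I (-1.04). Of 6 stem cell markers, 3 were higher and 1 lower in TLR4-WT, 2 and 0 in D299G, and 4 and 1 in T399I, and the D299G total fell to 1 without D299G replicate 2 or 3 or untransfected replicate 1 or 2. LGR5, the receptor that marks intestinal stem cells, rose by 2.23, 1.84 and 1.65 in TLR4-WT, D299G and T399I (adjusted p = 6.02e-08 or lower). PROM1 was the 1 called lower, in TLR4-WT (-0.52) and T399I (-0.93). Of 11 enteroendocrine markers, 2, 3 and 3 were higher and 1 lower in each line, and the TLR4-WT total of 3 became 5 without untransfected replicate 3. NTS (neurotensin), below the lower quartile in untransfected cells, rose by at least 1.14, 2.65 and 3.79 (adjusted p = 1.11e-05 or lower). SCG5 was the 1 called lower (-1.35, -1.18 and -1.38 in TLR4-WT, D299G and T399I). Of the 9 leukocyte and fibroblast markers, 1 was higher and 2 lower in TLR4-WT, 2 and 1 in D299G, and 0 and 1 in T399I. Their total in TLR4-WT fell to 1 without TLR4-WT replicate 3, and that in T399I rose to 2 without T399I replicate 2 or untransfected replicate 3. CD68 was lower in all 3 lines, with differences of -0.36, -0.51 and -0.37 (adjusted p = 0.00392 or lower). Fewer cells of a type and less RNA per cell cannot be told apart in these whole-culture samples.

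The genes with the profile most like that of each changed member were found by Pearson correlation over the 12 arrays. The search covered the 18418 genes with the members left out, so members were not compared with each other. These correlations rest on 4 groups of 3 and carry no test. The genes were picked for this likeness, so the shared courses given below only restate it. For TFF3 they were SLC7A7, a basolateral amino acid transporter (r = 0.986), and PCK2, a mitochondrial phosphoenolpyruvate carboxykinase (0.984). For TFF2 they were MYO1A, the myosin of brush border microvilli (0.958), and RN7SL737P, a pseudogene of a repeated small RNA family (0.956). MYO1A fell with TFF2, from 9.92 to 10.11 in untransfected cells to 8.78 to 8.92 in D299G and 9.25 to 9.48 in T399I.

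For HEPACAM2 the nearest profiles were those of ABCC9, a channel-regulating ABC protein (r = 0.997), and BCKDHB, a subunit of the branched-chain keto acid dehydrogenase (0.996). ABCC9 fell by 1.92, 2.43 and 1.74 in TLR4-WT, D299G and T399I, in the same order of size as HEPACAM2. For MUC13 they were FADS2, a fatty acid desaturase (0.991), and MACC1 (0.986). FADS2 ranged from 10.23 to 10.3 in T399I and from 8.17 to 8.58 in the other groups. TFF1 was followed most closely by PCBP1, an RNA-binding protein (0.972), and KLF11 (0.969), and SPDEF by POU2F2 (0.961) and LRRC4B (0.96).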

How the data were processed

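Total RNA of 12 Caco-2 samples was hybridised to Affymetrix whole-transcript arrays, 1 per sample. Per the submitters' processing notes, the authors used Affymetrix Expression Console 1.0 with RMA, and the deposited values are log2 expression with 2 decimals for 33297 probe sets, with 0 missing. The genome build is not given in the sources used here. They were used as deposited. Quantile normalisation removes global shifts between arrays, and precision is limited by how many arrays there are. In the platform annotation 19461 probe sets had 1 symbol, 1753 had several and 12083 had none. For a gene with several probe sets, the one with the highest mean was used (18418 genes, 18392 with a symbol in the RefSeq table of GRCh38.p14, used for gene order).

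Group means were fitted to all 12 arrays with limma 3.58.1 in R 4.3.3 (8 residual degrees of freedom), with Benjamini-Hochberg adjustment over all probe sets, two-sided, called at 0.05. Intervals are 95% and unadjusted. The script was tested on simulated data with known changes. Members, gene lists and motifs were chosen with earlier results of these data known. Named were all members, TLR4 and the neighbours of the trefoil genes, MUC13, AGR2 and HEPACAM2. The measured neighbours of MUC2, SPDEF and FCGBP were fitted in the same way but not described singly. Against untransfected cells, MUC5B (for MUC2) and FBL and PSMC4 (for FCGBP) were called higher in every TLR4 line. ILRUN (for SPDEF) was called lower in every line. MUC6 (for MUC2) and PACSIN1 (for SPDEF) were called higher in D299G alone. From each list came up to 4 genes with the widest range of group means among those passing the F test. The 2 genes outside the members that were most correlated with each changed member were also named. Alternatives were centring arrays on their medians, a filter on low probe sets, a trended robust prior, only the arrays compared, a replicate block, 1 probe set per gene, the lowest probe set, and leaving out each array.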

Additional observations from a re-analysis of the deposited data

Results flagged for a closer look

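MUC13 was called in opposite directions against untransfected cells in different TLR4 lines, and the difference between those lines was itself tested by limma. It was higher in T399I and lower in TLR4-WT, with T399I above TLR4-WT by 1.24 on the log2 scale (adjusted p = 9.52e-07). It was also lower in D299G, with D299G minus T399I at -1.16 (adjusted p = 6.54e-07). In both pairs all 3 arrays of a line lay on 1 side of all 3 untransfected arrays.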

How the results depend on the processing

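The number of member genes passing stayed within 1.5 times the main count under every alternative run. No member difference that passed in the main fit or in the alternative changed sign between them. Sign changes of differences that passed in neither were not counted. Of 54 member differences, 45 kept their call under all alternatives. Deviations of same-numbered arrays from their group means correlated at -0.079 to 0.274 (median 0.055) and those of different-numbered arrays at -0.265 to 0.209 (median -0.029). Of 12 arrays, 8 correlated best with one of their own number, a hint of pairing that comes from the data and not the design, so the block was kept as an alternative. With a replicate block 4, 5 and 4 members passed in TLR4-WT, D299G and T399I against untransfected cells, 4 in D299G and 4 in T399I against TLR4-WT, and 3 between the mutants, while 5 of the 6 passing the F test still did, a count also reached without TLR4-WT replicate 1 or 3 or untransfected replicate 1 or 2. TFF2 between the mutants (adjusted p = 0.0505) and HEPACAM2 between T399I and TLR4-WT (0.0632) were the pairwise calls lost. Fitting only the arrays compared lost the same 2 calls (0.0975 and 0.0783), and took all probe sets called in T399I from 9806 to 6508 against untransfected cells and from 3456 to 1945 against TLR4-WT. Leaving out TLR4-WT replicate 1 or 2 or T399I replicate 3 gave 2194, 2183 and 2119 in the latter. TFF1 in T399I passed with the filter on low probe sets (0.0494) or the trended robust prior (0.0386), and SPDEF in T399I with centring (0.0482), the filter (0.0384) or 1 probe set per gene (0.0289). Each member had 1 probe set, so the choice among probe sets changed none of them. Low signal limits MUC2, SPDEF, FCGBP and, in all 3 TLR4 lines, HEPACAM2. Smaller lists moved by more than 1.5 times, such as lineage regulators between T399I and TLR4-WT (7 to between 2 and 4 without single arrays). The causes were not tested.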
